A study of Homo sapiens with 8 samples.

Results

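The question asked here is how much of the transcriptional response to transforming growth factor beta 1 (TGFB1) was left when celastrol was present. It is answered by 4 of the 8 libraries of the series, 2 from CCD-1077Sk cells given TGFB1 together with celastrol at 500 nM and 2 from cells given celastrol at 500 nM without TGFB1. They were chosen by their treatment labels alone. CCD-1077Sk is an established line of human fibroblasts from normal skin, and all cells were collected at 6 h. The other 4 libraries, 2 of TGFB1 with DMSO and 2 of control, give the response without celastrol. The cells without TGFB1 received BSA and citric acid in its place, with celastrol in the celastrol group and with DMSO in the control group. No source used here gives the dose of TGFB1. All results come from 1 cell line at 1 time. The labels do not state that the 2 libraries of a group are separate cultures, and p-values then reflect a spread between libraries that may be technical.

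TGFB1 is a secreted cytokine that binds a pair of receptor kinases, which phosphorylate SMAD2 and SMAD3. These join SMAD4, enter the nucleus and act on target genes that include their own inhibitors (SMAD7, SKIL, PMEPA1), the matrix genes of wound repair and fibrosis, and the contractile genes of the myofibroblast. Celastrol is a plant triterpenoid known to induce the heat shock and oxidative stress responses.

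Values are estimated reads per gene divided by 1 size factor per library, called normalized reads below, and they are not scaled by gene length. The 4 libraries with celastrol held 22615115 to 38583024 estimated reads and the 8 libraries of the series 20716711 to 42518361. A gene at 0 in a celastrol library could have had up to 3 reads, which is 2.10 to 3.63 normalized reads, a limit that covers counting error only. All 10 fibroblast markers were in the table, with summed levels of 381771 and 444429 in TGFB1 with celastrol and 400604 and 475528 in celastrol. Of 6 markers each, 3 keratinocyte, 3 endothelial, 3 melanocyte and 4 immune markers were in the table, and the summed levels of these 4 lists were 78.7 to 1072 in the 4 celastrol libraries. The defining keratinocyte genes KRT5 and KRT14, the endothelial CDH5 and the melanocyte TYR are not in the table used here. In a principal component analysis the first component (86.5% of the variance) separated libraries with celastrol from those without. On the second component (8.51%), TGFB1 with celastrol lay at 4.03 and 1.74 and celastrol at -0.71 and 1.21, while TGFB1 lay at 31.3 and 33.0 and control at -34.5 and -36.0.

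With celastrol present, TGFB1 left 1 gene higher and 1 lower of 22866 tested, 0.00437% in each direction and 0.00875% in all, at an adjusted p under 0.05 (limma on log2(value + 1), Benjamini-Hochberg adjustment over all genes tested). In the same fit TGFB1 alone raised 2937 genes (12.8%) and lowered 2427 (10.6%) against control, 23.5% in all. Scaling all libraries to a common total changed this split to 1417 raised and 5399 lowered, and centring each on its median to 4778 and 1775. The 2 comparisons use different libraries and share only the estimate of the spread. An unadjusted p under 0.05 was found for 868 genes (3.80%), 470 of them higher in TGFB1 with celastrol than in celastrol (2.06%) and 398 lower (1.74%). With no difference in any gene, a share of about 0.05 would be expected under that threshold. The count by itself is therefore no sign of genes that differed. Among the 14739 genes with a mean of at least 50 normalized reads, the median absolute log2 fold change was 0.0767 with celastrol and 0.228 without it. The median absolute difference between the 2 libraries of a group was 0.104 in TGFB1 with celastrol and 0.110 in celastrol. These are differences of single libraries, which run larger than differences of means of 2 libraries such as the 0.0767, so the sizes are not directly comparable. The 95% confidence interval of a log2 fold change with celastrol reached 0.24 to either side for the median gene of that level, and 0.59 for the gene at the 90th percentile.

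The gene that rose was FOSB, an AP-1 subunit of the immediate early class, on chromosome 19. It had 6838 and 7776 normalized reads in TGFB1 with celastrol, against 3723 and 3381 in celastrol. It had 181 and 168 in TGFB1 and 17.5 and 16.8 in control. All 4 groups were apart from each other, and both groups with celastrol lay above both groups without it. The log2 fold change of TGFB1 with celastrol over celastrol was 1.04 (SE 0.10, 95% interval 0.82 to 1.26, adjusted p = 0.0499), and that of TGFB1 over control was 3.27. The adjusted p was close to the threshold and ran from 0.0178 to 1 over the alternatives, and leaving out any 1 of the 8 libraries lost the call (adjusted p 0.13 to 1). The gene that fell, FOXD4L6, lies outside the naming rule and is named after its values were seen. It is a member of the FOXD4 forkhead family on chromosome 9, whose copies are nearly identical, so reads shared among them make its value uncertain. It had 0.0158 and 0.109 normalized reads in TGFB1 with celastrol, under 1 read, and 12.9 and 18.4 in celastrol. Set against the floor of 3 reads in each library of TGFB1 with celastrol, the level was at least 5.79-fold lower than in celastrol (limma adjusted p = 0.0499). Its adjusted p ran from 0.0265 to 0.758 over the alternatives. It too was lost on leaving out any 1 of the 8 libraries, and with the replicate block (adjusted p = 0.0782).

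**Figure D1:**
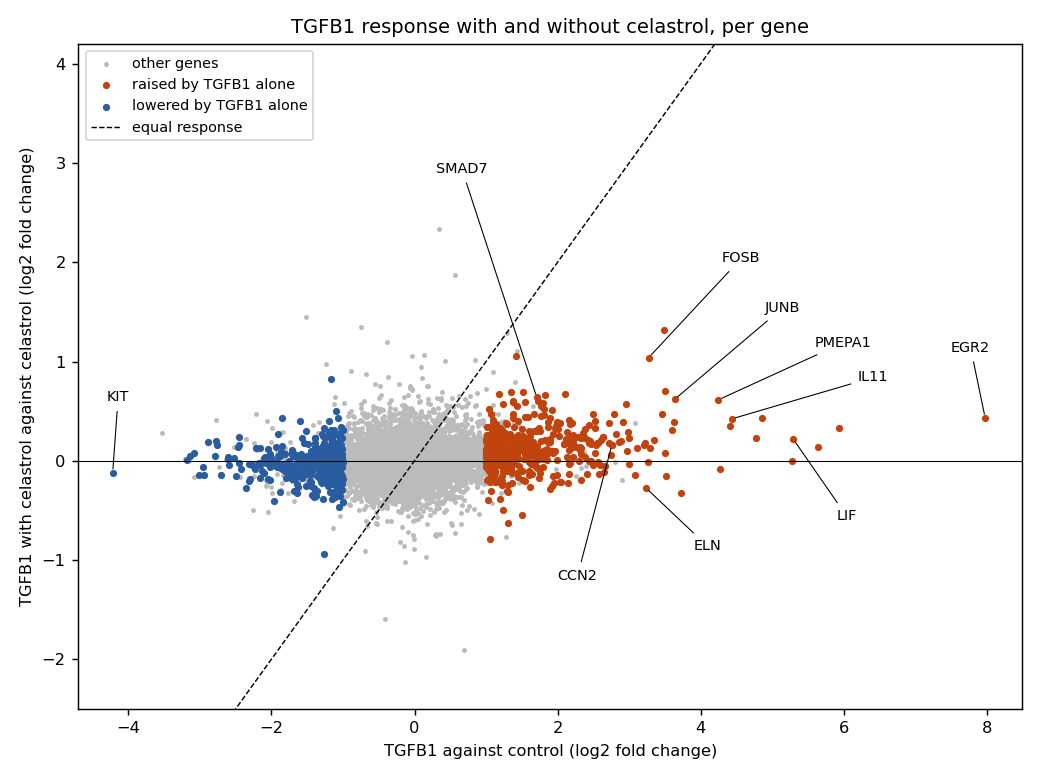
Log2 fold change of TGFB1 with celastrol over celastrol (vertical axis) against that of TGFB1 over control (horizontal axis), 1 point for each gene with a mean of at least 50 normalized reads over the 8 libraries. Colours mark genes raised or lowered by TGFB1 alone, and the dashed line marks an equal response. The coloured genes lie along the horizontal line at 0, with most raised genes slightly above it and FOSB, JUNB, PMEPA1 and SMAD7 among the higher ones.

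The promoters of 3 genes are shown for an element that SMAD proteins are known to bind. CAGAC, or GTCTG on the other strand, is the core of the SMAD box, the short element that SMAD3 and SMAD4 contact. The 300 bases from 250 before to 50 after the RefSeq start (GRCh38.p14) are given 5′ to 3′ on the gene's strand, with these letters in capitals. FOSB is shown as the gene that rose, SMAD7 as the inhibitory SMAD described next, and CCN2 as an effector of fibrosis described below. They lie at chr19:45467746-45468045 (plus strand), chr18:48950916-48951215 (minus strand) and chr6:131951323-131951622 (minus strand).
FOSB: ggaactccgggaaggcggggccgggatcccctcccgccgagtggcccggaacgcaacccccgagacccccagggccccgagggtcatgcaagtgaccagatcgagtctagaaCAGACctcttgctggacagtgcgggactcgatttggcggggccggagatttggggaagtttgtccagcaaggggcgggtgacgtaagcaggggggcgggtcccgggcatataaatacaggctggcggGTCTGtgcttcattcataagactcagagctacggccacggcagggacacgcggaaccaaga
SMAD7: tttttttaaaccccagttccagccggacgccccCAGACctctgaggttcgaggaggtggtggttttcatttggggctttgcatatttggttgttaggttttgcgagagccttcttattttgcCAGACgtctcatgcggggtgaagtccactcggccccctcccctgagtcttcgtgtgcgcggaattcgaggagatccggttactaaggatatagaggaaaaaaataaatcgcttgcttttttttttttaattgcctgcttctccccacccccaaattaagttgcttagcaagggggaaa
CCN2: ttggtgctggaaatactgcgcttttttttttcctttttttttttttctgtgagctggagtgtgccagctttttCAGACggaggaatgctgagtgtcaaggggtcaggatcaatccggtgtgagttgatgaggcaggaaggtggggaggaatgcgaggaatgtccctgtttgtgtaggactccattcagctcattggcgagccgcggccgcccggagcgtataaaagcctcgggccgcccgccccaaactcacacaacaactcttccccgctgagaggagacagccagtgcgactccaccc
The letters occurred 2 times in the FOSB window, 2 times in that of SMAD7 and 1 time in that of CCN2, and not in those of JUNB and PMEPA1. Of 35116 RefSeq promoter windows of this length, 45.3% held them at least once, and so did 30 of the 55 windows found for the 76 genes in the tables of this text. The AP-1 motif TGANTCA was in 7.71% of all windows and in 6 of the 55, and the heat shock element core GAANNTTC in 6.77% and in 7 of the 55. Both motifs read the same on either strand. A match is a description of the letters in the window and not a site of binding.

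The inhibitors of the pathway held some of the larger differences with celastrol, though none passed the threshold after adjustment. SMAD7, which blocks the receptors, had 6031 and 5700 normalized reads in TGFB1 with celastrol and 3703 and 3832 in celastrol. It had 3439 and 3257 in TGFB1 and 1234 and 847 in control. The groups did not overlap in either comparison, and both celastrol libraries were slightly above both TGFB1 libraries. The log2 fold change was 0.64 with celastrol (95% interval 0.31 to 0.97, adjusted p = 1) and 1.71 without (adjusted p = 8.14e-05). The interaction, the log2 fold change with celastrol minus that without it, was -1.07 (adjusted p = 0.0122). This call was lost in 5 alternatives, without a variance trend and without any 1 of the 4 celastrol libraries.

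SKIL, a corepressor that binds SMADs, had 12534 and 12089 normalized reads in TGFB1 with celastrol, against 9328 and 8830 in celastrol, and 12641 and 10682 in TGFB1, against 4108 and 3834 in control. Its groups were apart in both comparisons, with log2 fold changes of 0.44 (95% interval 0.25 to 0.63, adjusted p = 0.642) with celastrol and 1.55 without it. PMEPA1, which takes SMADs away from the receptor, had 744 and 607 in TGFB1 with celastrol and 453 and 425 in celastrol. In TGFB1 it had 4397 and 4364, and in control 225 and 234. PMEPA1 thus lay far below its TGFB1 level in both celastrol groups, and its log2 fold change was 0.61 with celastrol (95% interval 0.39 to 0.84, adjusted p = 0.457) and 4.25 without. Its exons overlap those of the antisense gene NKILA, and no source used here says whether reads were counted by strand.

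Of the 20 genes of SMAD signalling and feedback tested, limma called none at the adjusted threshold with celastrol. At an unadjusted p under 0.05 it gave 4 of the 20, all higher, against 2.06% of all genes higher and 1.74% lower. Both libraries of TGFB1 with celastrol lay above both of celastrol for 10, and below them for 1, SMAD4, which is named after its values were seen. Over all genes tested, 16.7% were above in this way and 17.1% below. The median log2 fold change of the 20 was 0.06 with celastrol and 0.09 without it (-0.14 with a common total). TGFB1 alone raised 7 and lowered 4 of them, against 12.8% and 10.6% of all genes. Among those it lowered was SMAD6, the inhibitory SMAD of the BMP branch, with 782 and 770 normalized reads in TGFB1 with celastrol and 730 and 665 in celastrol. It had 181 and 168 in TGFB1 and 1001 and 928 in control, so that its log2 fold change was 0.16 with celastrol (95% interval -0.04 to 0.35) and -2.46 without. SMAD3 itself had a log2 fold change of 0.04 (95% interval -0.17 to 0.25) with celastrol and -0.84 without.

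Among ligands and receptors, 5 of 19 genes tested were above without overlap with celastrol (26.3%, against 16.7% of all genes) and 2 below (10.5%, against 17.1%). None passed the limma threshold after adjustment. At an unadjusted p under 0.05, 1 was higher and 1 lower, against 2.06% and 1.74% of all genes. TGFB1 raised its own transcript without celastrol, to 3669 and 4300 normalized reads, against 1461 and 1581 in control. In TGFB1 with celastrol the TGFB1 transcript had 1167 and 1236, within the range of celastrol at 1068 and 1283. Exons of TGFB1 overlap those of HNRNPUL1. INHBA, the activin A subunit, had 8373 and 8857 in TGFB1 with celastrol and 7392 and 7858 in celastrol. These levels were near those of TGFB1 (9747 and 9424) and above those of control (1931 and 1603), and the log2 fold changes of INHBA were 0.18 with celastrol and 2.44 without. LTBP1, which holds latent TGFB in the matrix, had log2 fold changes of 0.17 (95% interval 0.04 to 0.29, adjusted p = 1) and 0.97. The receptors TGFBR1 and TGFBR2 had log2 fold changes of 0.01 and -0.12 with celastrol, and 0.40 and 0.03 without it, none past the threshold. In the BMP branch, TGFB1 alone lowered ID1 and ID3, the inhibitors of differentiation that BMP signals induce, by log2 fold changes of -1.18 and -0.74. With celastrol, ID1 had 1345 and 1519 normalized reads in TGFB1 with celastrol and 1556 and 1300 in celastrol, a log2 fold change of 0.01 (95% interval -0.29 to 0.30), and that of ID3 was -0.06.

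**Figure D2:**
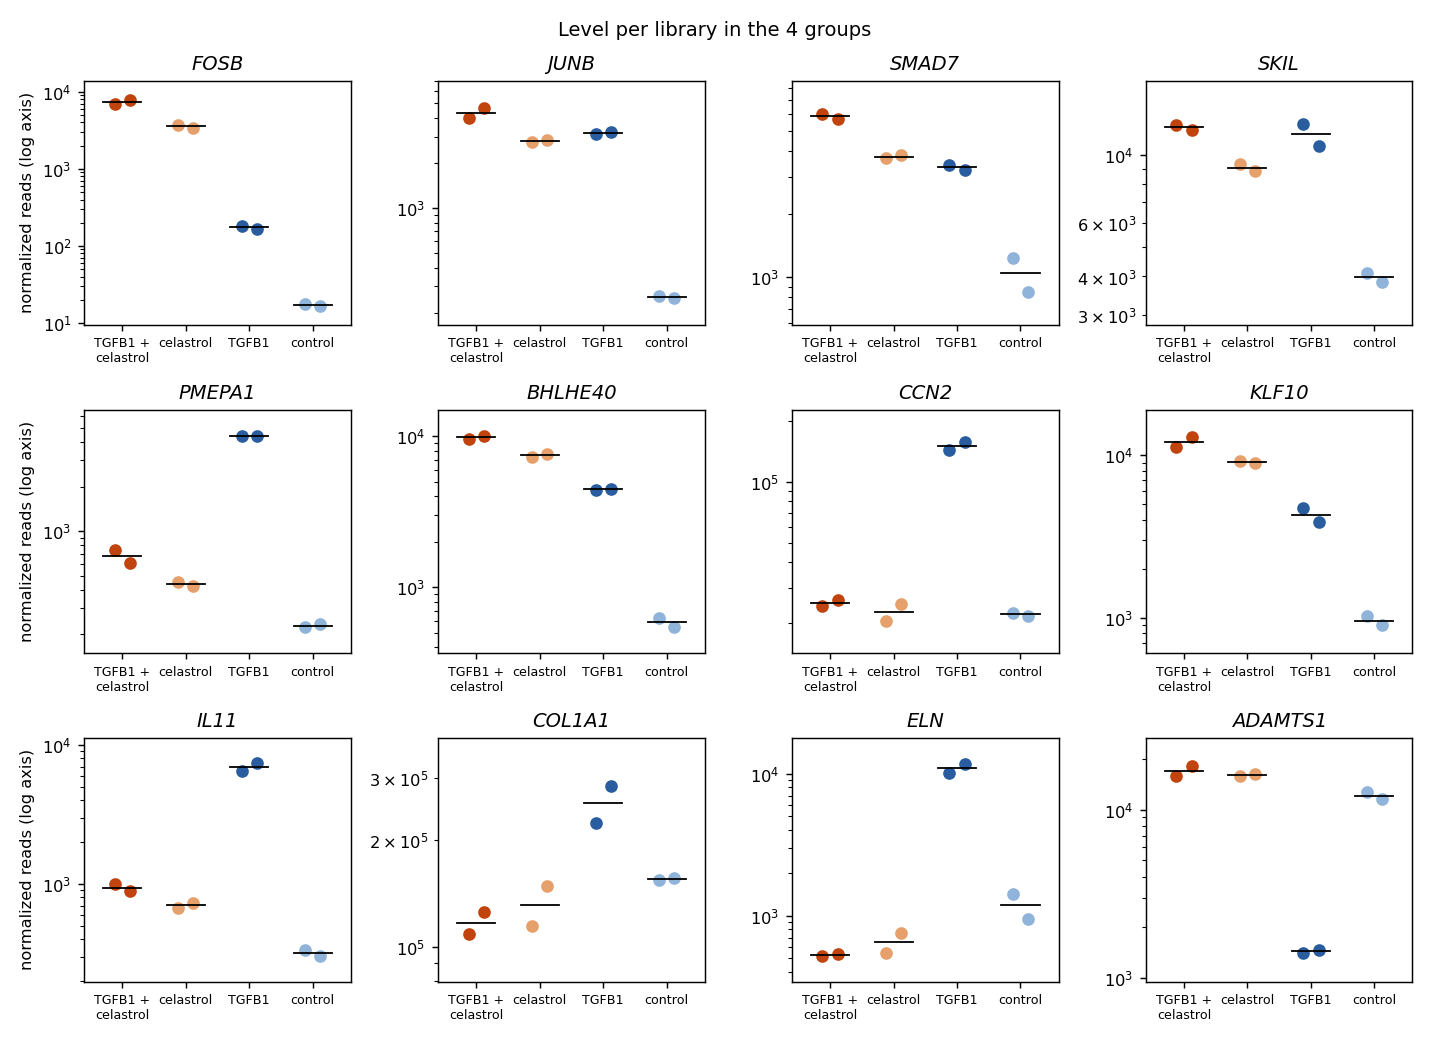
Normalized reads of 12 genes in each library (log axes that differ between panels), in TGFB1 with celastrol, celastrol, TGFB1 and control. Points are libraries and bars the mean of 2. FOSB, JUNB, SMAD7, BHLHE40 and KLF10 stand high in both celastrol groups and higher in the one with TGFB1, whereas CCN2, IL11 and ELN are high in TGFB1 without celastrol.

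Among the AP-1 and other immediate early genes, JUNB followed FOSB in the size of its p. JUNB, the AP-1 partner of FOSB, had 3969 and 4677 normalized reads in TGFB1 with celastrol, against 2762 and 2846 in celastrol, and 3138 and 3207 in TGFB1, against 258 and 250 in control. The groups did not overlap, and the log2 fold changes were 0.62 with celastrol (95% interval 0.44 to 0.80, adjusted p = 0.232) and 3.64 without. Exons of JUNB overlap those of HOOK2. Of the 24 genes of this class, FOSB was the only call with celastrol. In 8 the libraries were above without overlap (33.3%, against 16.7% of all genes) and in 6 below (25%, against 17.1%). EGR2, a zinc finger factor induced by growth signals, was nearly absent in control and had 2931 and 3346 normalized reads in TGFB1 with celastrol, against 2317 and 2320 in celastrol. EGR2 had 3805 and 3647 in TGFB1 and 17.5 and 10.8 in control, and its log2 fold changes were 0.43 (95% interval 0.03 to 0.84, adjusted p = 1) and 7.98.

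Of 29 Kruppel-like and mesenchymal transcription factors tested, 10 were above without overlap with celastrol (34.5%, against 16.7% of all genes) and 3 below (10.3%, against 17.1%). None was past the adjusted limma threshold. At an unadjusted p under 0.05, 4 were higher and 1 lower, against 2.06% and 1.74% of all genes. BHLHE40, a basic helix-loop-helix repressor, had 9609 and 9982 normalized reads in TGFB1 with celastrol and 7293 and 7604 in celastrol. In TGFB1 it had 4415 and 4493, and in control 629 and 550, so celastrol libraries were above TGFB1 libraries whether or not TGFB1 was added. Its log2 fold changes were 0.40 with celastrol (95% interval 0.23 to 0.56, adjusted p = 0.636) and 2.92 without. KLF10, an early TGFB-inducible repressor, had 11277 and 12880 in TGFB1 with celastrol, against 9159 and 8972 in celastrol, with log2 fold changes of 0.41 (95% interval 0.17 to 0.66, adjusted p = 1) and 2.16. SOX9 and SNAI1, factors of mesenchymal cells, had log2 fold changes of 0.31 and 0.33, against 1.14 and 1.96 without celastrol, and the interval of SNAI1 with celastrol held 0 (-0.14 to 0.80).

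NEDD9 and SLC19A2 lie outside the naming rule and are named because, after FOSB and FOXD4L6, they were with JUNB the genes with the smallest p. NEDD9, an adhesion scaffold protein, had 4696 and 4574 normalized reads in TGFB1 with celastrol and 3520 and 3547 in celastrol, and 9348 and 9392 in TGFB1, against 2330 and 2391 in control. SLC19A2, a thiamine transporter, had 1243 and 1152 in TGFB1 with celastrol and 816 and 794 in celastrol. Neither overlapped between groups, and their log2 fold changes with celastrol were 0.39 (adjusted p = 0.232) and 0.57 (adjusted p = 0.273).

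Secreted signals differed in their level with celastrol. Each library of both celastrol groups was below both TGFB1 libraries for IL11, LIF and IL6, and above them for the growth factors FGF7 and EREG. IL11, a cytokine of the IL6 family active in fibrosis, had 995 and 893 normalized reads in TGFB1 with celastrol and 672 and 735 in celastrol. It had 6503 and 7363 in TGFB1 and 334 and 302 in control, so the groups with celastrol did not overlap but were both far below TGFB1. Its log2 fold changes were 0.42 with celastrol (95% interval 0.21 to 0.64, adjusted p = 1) and 4.44 without. LIF, of the same family, had 717 and 710 in TGFB1 with celastrol, against 600 and 625 in celastrol, and log2 fold changes of 0.22 (95% interval -0.01 to 0.45) and 5.29. IL6 had 132 and 135 in TGFB1 with celastrol and 146 and 165 in celastrol, a log2 fold change of -0.21 (95% interval -0.55 to 0.13), against 2.05 for TGFB1 alone. SOCS3, the feedback inhibitor of this family, had 1883 and 1958 in TGFB1 with celastrol and 1448 and 1504 in celastrol, with log2 fold changes of 0.38 (95% interval 0.23 to 0.53, adjusted p = 0.636) and 0.91. HBEGF and PDGFA, growth factors for epidermal and mesenchymal cells, had log2 fold changes of 0.35 (95% interval 0.07 to 0.63) and 0.39 (0.08 to 0.69) with celastrol and 4.41 and 1.87 without. None of the genes of these 2 lists passed the adjusted limma threshold with celastrol. At an unadjusted p under 0.05 there were 2 IL6-family and 3 growth factor genes higher and 1 growth factor gene lower. Over all genes tested, 2.06% were higher and 1.74% lower at that threshold. EREG, a ligand of the EGF receptor, had 987 and 1000.4 in TGFB1 with celastrol and 1254 and 1143 in celastrol, against 145 and 171 in TGFB1. FGF7, a growth factor for keratinocytes, had 682 and 774 in TGFB1 with celastrol and 559 and 619 in celastrol, against 287 and 321 in TGFB1. Of 15 IL6-family genes, 5 were above without overlap and 5 below, 33.3% each. Of 25 growth factor genes 7 were above (28%) and 4 below (16%), where all genes gave 16.7% above and 17.1% below.

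The effector genes of fibrosis gave smaller differences. CCN2, the matrix protein also called connective tissue growth factor, on chromosome 6, had 24485 and 26064 normalized reads in TGFB1 with celastrol and 20523 and 24924 in celastrol. It had 143117 and 157853 in TGFB1 and 22618 and 21793 in control. The celastrol groups overlapped, and all 4 of their libraries lay near control. The log2 fold change of CCN2 was 0.16 with celastrol (95% interval -0.06 to 0.38) and 2.76 without, and the interaction was -2.60 (adjusted p = 2.75e-05).

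Of 24 collagen genes tested, TGFB1 alone raised 14 and lowered 0, against 12.8% and 10.6% of all genes. With celastrol limma called 0 at the adjusted threshold and 0 at an unadjusted p under 0.05 (2.06% higher and 1.74% lower over all genes). Without overlap, 2 were above (8.33%, against 16.7% of all genes) and 3 below (12.5%, against 17.1%). The interaction was negative and past the threshold for 13 of the 24 collagen genes, against 6.89% of all genes tested. All 13 were among the genes raised by TGFB1 alone, and the interaction subtracts that rise. Its sign is thus largely fixed for them, and the count is a description that supports nothing. With libraries scaled to a common total, TGFB1 alone raised 11 collagen genes and lowered 2. COL1A1, the main chain of type I collagen, had 108573 and 125115 normalized reads in TGFB1 with celastrol, 114158 and 147928 in celastrol, 223348 and 284508 in TGFB1 and 153977 and 155723 in control. The celastrol groups overlapped and each lay below both control libraries, and the log2 fold changes were -0.16 (95% interval -0.51 to 0.19) with celastrol and 0.70 without. COL7A1, of anchoring fibrils, had log2 fold changes of 0.22 (95% interval -0.00093 to 0.44) and 1.90, while those of COL1A2 and COL3A1 were -0.17 and -0.14 with celastrol and did not pass the threshold without it either.

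Of 26 matrix glycoprotein, elastic fibre and proteoglycan genes, TGFB1 alone raised 16 and lowered 0, against 12.8% and 10.6% of all genes. With a common total, 14 of them were raised and 2 lowered. With celastrol 1 was above without overlap (3.85%, against 16.7% of all genes) and 5 below (19.2%, against 17.1%), none past the adjusted threshold. The 1 above was VCAN, a proteoglycan core protein. It was also the only one at an unadjusted limma p under 0.05 (2.06% higher and 1.74% lower over all genes). The interaction was negative and past the threshold for 15 of the 26, against 6.89% of all genes tested. All 15 were among the genes raised by TGFB1 alone, so this sign too is largely fixed. ELN, which encodes elastin, had 519 and 538 normalized reads in TGFB1 with celastrol, against 543 and 753 in celastrol, and 10144 and 11754 in TGFB1, against 1413 and 948 in control. The libraries of TGFB1 with celastrol were the lowest of all 8, just under those of celastrol, and the log2 fold changes were -0.27 (95% interval -0.72 to 0.17) with celastrol and 3.24 without. FN1, fibronectin, had log2 fold changes of 0.02 (95% interval -0.26 to 0.29) and 1.38. COMP, a cartilage and tendon glycoprotein also made in fibrotic skin, had 60.3 and 27.5 in TGFB1 with celastrol, against 24.0 and 43.6 in celastrol, and 766 and 687 in TGFB1, against 17.5 and 6.60 in control. Its celastrol groups overlapped, with an interval of -0.83 to 1.48 around a log2 fold change of 0.33. None of the 18 genes of collagen modification and crosslinking was above without overlap with celastrol (against 16.7% of all genes) and 7 were below (38.9%, against 17.1%).

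Among 25 contractile and cytoskeletal genes, TGFB1 alone raised 15 and lowered 0, against 12.8% and 10.6% of all genes. With a common total, 12 of them were raised and 2 lowered. With celastrol none passed by limma, adjusted or unadjusted. None was above without overlap (against 16.7% of all genes) and 1 was below (4%, against 17.1%). TAGLN, a smooth muscle actin-binding protein, had 18846 and 15467 normalized reads in TGFB1 with celastrol and 20147 and 16782 in celastrol, a log2 fold change of -0.11 (95% interval -0.44 to 0.23) against 0.71 for TGFB1 alone. ACTA2, smooth muscle actin, varied more between libraries of 1 group than between groups, at 2259 and 1200 in TGFB1 with celastrol and 2428 and 1625 in celastrol, and it did not pass the threshold without celastrol either. Exons of TAGLN overlap those of PCSK7, and those of ACTA2 overlap FAS. NOX4, an oxidase that makes hydrogen peroxide in myofibroblasts, had 198 and 139 in TGFB1 with celastrol and 171 and 128 in celastrol, and 1442 and 1127 in TGFB1, against 289 and 167 in control. Its celastrol groups overlapped, with log2 fold changes of 0.16 (95% interval -0.48 to 0.80) and 2.53.

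**Figure D3:**
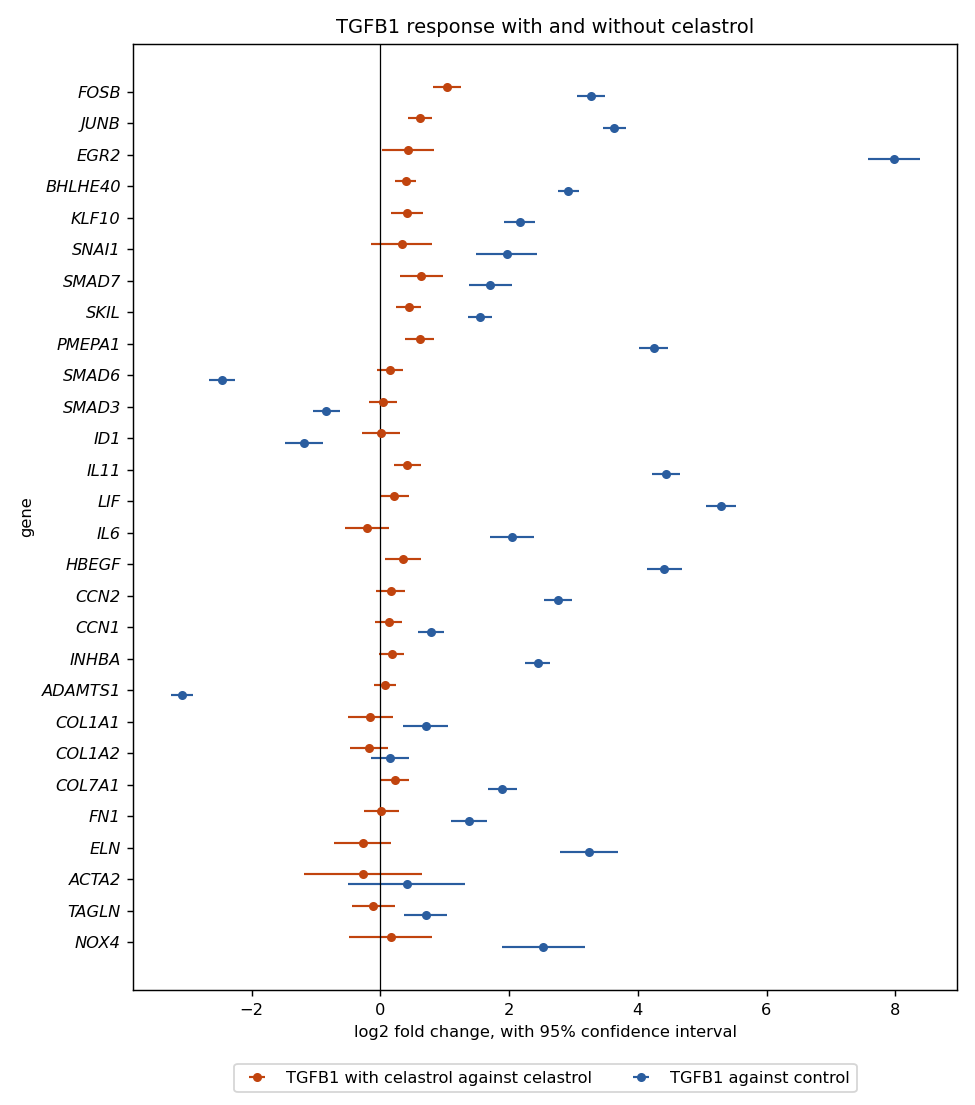
Log2 fold change of 28 genes, with 95% confidence intervals from limma, for TGFB1 with celastrol over celastrol and for TGFB1 over control. Points near 0 with celastrol stand opposite large differences without it for IL11, LIF, CCN2, ELN and SMAD6, and the interval of FOSB with celastrol runs from 0.82 to 1.26.

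Of the genes lowered by TGFB1 alone, 4 are given here that were named for having the largest positive interactions, so the difference between their responses is a description of that choice. KIT, a receptor kinase, had 765 and 900 normalized reads in TGFB1 with celastrol, against 818 and 993 in celastrol, and 26.8 and 27.0 in TGFB1, against 499 and 541 in control. The celastrol groups overlapped, and the log2 fold changes were -0.12 (95% interval -0.42 to 0.18) and -4.22. ADAMTS1, a secreted protease of versican and aggrecan, had 15828 and 18076 in TGFB1 with celastrol and 15842 and 16324 in celastrol, and 1398 and 1471 in TGFB1, against 12675 and 11572 in control. Its log2 fold changes were 0.07 (95% interval -0.10 to 0.25) and -3.08. ARHGAP28, which acts on RHOA, and KCNN2, a potassium channel, had log2 fold changes of 0.01 and 0.19 with celastrol and -3.17 and -2.88 without.

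Taking all genes that TGFB1 alone raised at an adjusted p under 0.05 gave 487 genes with a log2 fold change of at least 1 and a mean of at least 50 in TGFB1. Of these, 1 (FOSB) was called higher with celastrol and none was called lower. Both libraries of TGFB1 with celastrol lay above both of celastrol for 177 of them (36.3%), against 16.7% of all genes tested, and below for 34 (6.98%), against 17.1%. At an unadjusted p under 0.05, 71 (14.6%) were higher, against 2.06% of all genes tested, and 103 were higher with a replicate block in the fit. The estimate of the spread is shared with the comparison that chose the 487, which favours a small p in this set. The median log2 fold change of the 487 was 0.10 with celastrol (quartiles -0.02 and 0.23) and 1.43 without it. Over the 4 ways to set 1 library of TGFB1 with celastrol against 1 of celastrol, this median was 0.14, 0.11, 0.09 and 0.05. The interaction passed the threshold in 2573 of all genes tested (11.3%), 997 with a positive sign (4.36%) and 1576 with a negative one (6.89%) (2474 and 801 with a common total, 784 and 2748 with median centring). Among the 487 raised genes the interaction was negative and past the threshold in 405 (83.2%) and positive in none. The fold change of TGFB1 over control that chose these genes is subtracted in the interaction, so the choice largely fixes this sign, and the count is a description that supports nothing. For 409 the upper end of the 95% interval with celastrol was under 50% of the log2 fold change without it, and this count shares that dependence on the choice.

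The 407 genes lowered by TGFB1 alone under the same limits had 0 calls with celastrol. Both libraries of TGFB1 with celastrol lay below both of celastrol for 74 of them (18.2%), against 17.1% of all genes, and above for 52 (12.8%), against 16.7%. At an unadjusted p under 0.05, 8 (1.97%) were lower, against 1.74% of all genes, and 19 were lower with a replicate block in the fit. The share of all genes with the block was not counted. Their median log2 fold change was -0.02 with celastrol and -1.30 without it. The interaction was positive and past the threshold in 301 (74.0%), a sign that the choice of these genes largely fixes as well. Without the replicate block, a share near that of all genes was thus found for the lowered genes and a higher one for the raised genes. These shares, from the same 4 libraries, were also split by the size of the response without celastrol. Raised genes with a log2 fold change of 1 to 1.5 were above without overlap in 31.4% of cases, those of 1.5 to 2 in 44.4%, those of 2 to 3 in 39.3% and those of 3 or more in 41.2%, with medians with celastrol of 0.06, 0.11, 0.18 and 0.22. For lowered genes the corresponding shares below were 18.1%, 18.7%, 18.4% and 14.3%. The genes with the smallest p come from the same 4 libraries too, so their count is not separate evidence. Of the 50 genes with the smallest p in TGFB1 with celastrol against celastrol, 38 were higher and 12 lower, and 18 (36.0%) were among the 487, which make up 2.13% of the genes tested. None of the 50 was among the 407. Both comparisons share each gene's estimate of the spread, so genes with a small spread are favoured in both. The 2.13% over all genes tested is therefore not an even baseline.

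**Figure D4:**
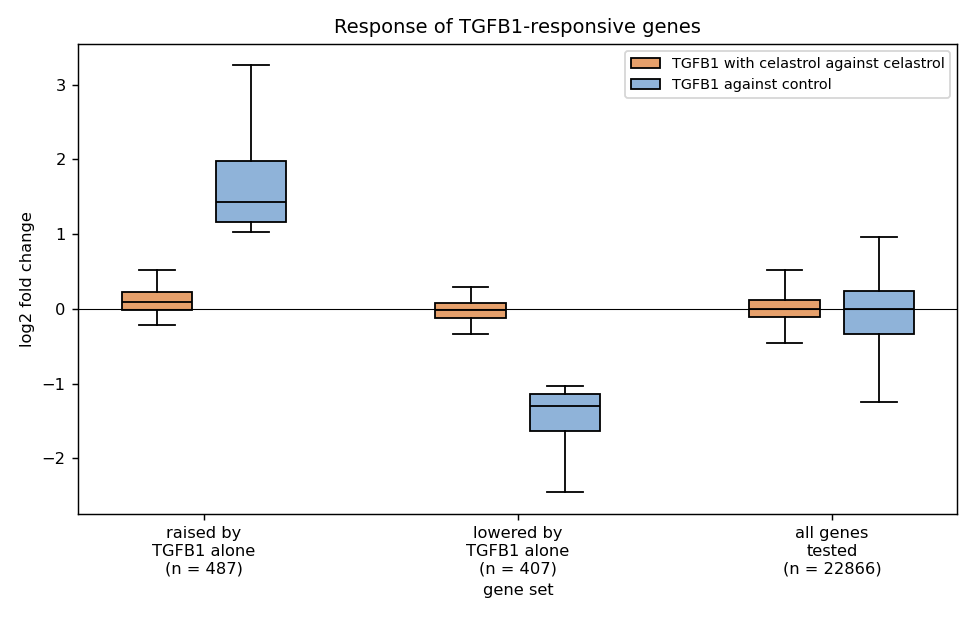
Log2 fold changes of TGFB1 with celastrol over celastrol and of TGFB1 over control, for 487 genes raised and 407 lowered by TGFB1 alone and for all 22866 genes tested. Boxes run from the first to the last quartile with the median as a line, and whiskers from the 5th to the 95th percentile. The choice of the sets fixes the boxes of TGFB1 over control, while the medians with celastrol are 0.10 and -0.02.

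How much of the response was left depends on the scale where the levels in celastrol and in control were far apart. On the log2 scale the median share of the TGFB1 response left with celastrol was 6.04% for raised genes (quartiles -1.06 and 13.6). As a difference of group means in normalized reads it was 4.33% (quartiles -0.78 and 15.8), and 43 genes (8.83%) kept at least 50%, against 4 on the log2 scale. These 4, named after their values were seen, are DLX2, AJAP1, the read-through gene PEDS1-UBE2V1 and the clone-named AL033523.1. None of the 4 passed the adjusted limma threshold with celastrol, so the share each kept is a ratio of estimates and not a tested response. In 94 of the 487, both celastrol libraries were already above both TGFB1 libraries. FOSB gained 3755 ± 499 normalized reads with celastrol and 157 ± 6.21 without (SE, n = 2 a group). SMAD7 gained 2098 ± 178 with celastrol and 2307 ± 214 without, and KLF10 3013 ± 807 with celastrol and 3347 ± 434 without. BHLHE40 gained 2347 ± 243 and 3865 ± 55.6, and SKIL 3233 ± 334 and 7691 ± 989. CCN2 gained 2551 ± 2338 with celastrol and 128279 ± 7380 without, and IL11 240 ± 60.2 and 6615 ± 431. For SMAD7 and KLF10 the gain in reads with celastrol was within 1 SE of that without, whereas for CCN2 and IL11 it was far below on both scales.

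Among the stress responses that celastrol is known for, no gene passed the adjusted threshold between TGFB1 with celastrol and celastrol. HSPA1A, the inducible HSP70, had 182186 and 180841 normalized reads in TGFB1 with celastrol and 158326 and 202959 in celastrol, and 1823 and 2086 in TGFB1, against 2150 and 2210 in control. The celastrol groups overlapped, with a log2 fold change of 0.02 (95% interval -0.24 to 0.27), and reads could be split between HSPA1A and its close copy HSPA1B. HSPH1 and HSPD1, a cochaperone of HSP70 and a mitochondrial chaperonin, had log2 fold changes of -0.18 and -0.23. Of 28 heat shock genes, 1 was above without overlap (3.57%, against 16.7% of all genes) and 9 below (32.1%, against 17.1%), with a median of -0.11. HMOX1, heme oxygenase, had 20710 and 19305 in TGFB1 with celastrol, against 23202 and 24815 in celastrol, and 523 and 717 in TGFB1, against 380 and 415 in control. Its celastrol groups did not overlap, with a log2 fold change of -0.26 (95% interval -0.56 to 0.03). Of 22 NRF2 targets none was above without overlap (against 16.7% of all genes) and 11 were below (50%, against 17.1%), with a median of -0.09. Of 21 ATF4 targets 1 was above (4.76%, against 16.7%) and 7 below (33.3%, against 17.1%). At an unadjusted limma p under 0.05, 4 heat shock genes, 2 NRF2 targets and 1 ATF4 target were lower and 0 higher. Over all genes tested, 1.74% were lower and 2.06% higher at that threshold. The median over all genes tested was -0.0018.

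**Figure D5:**
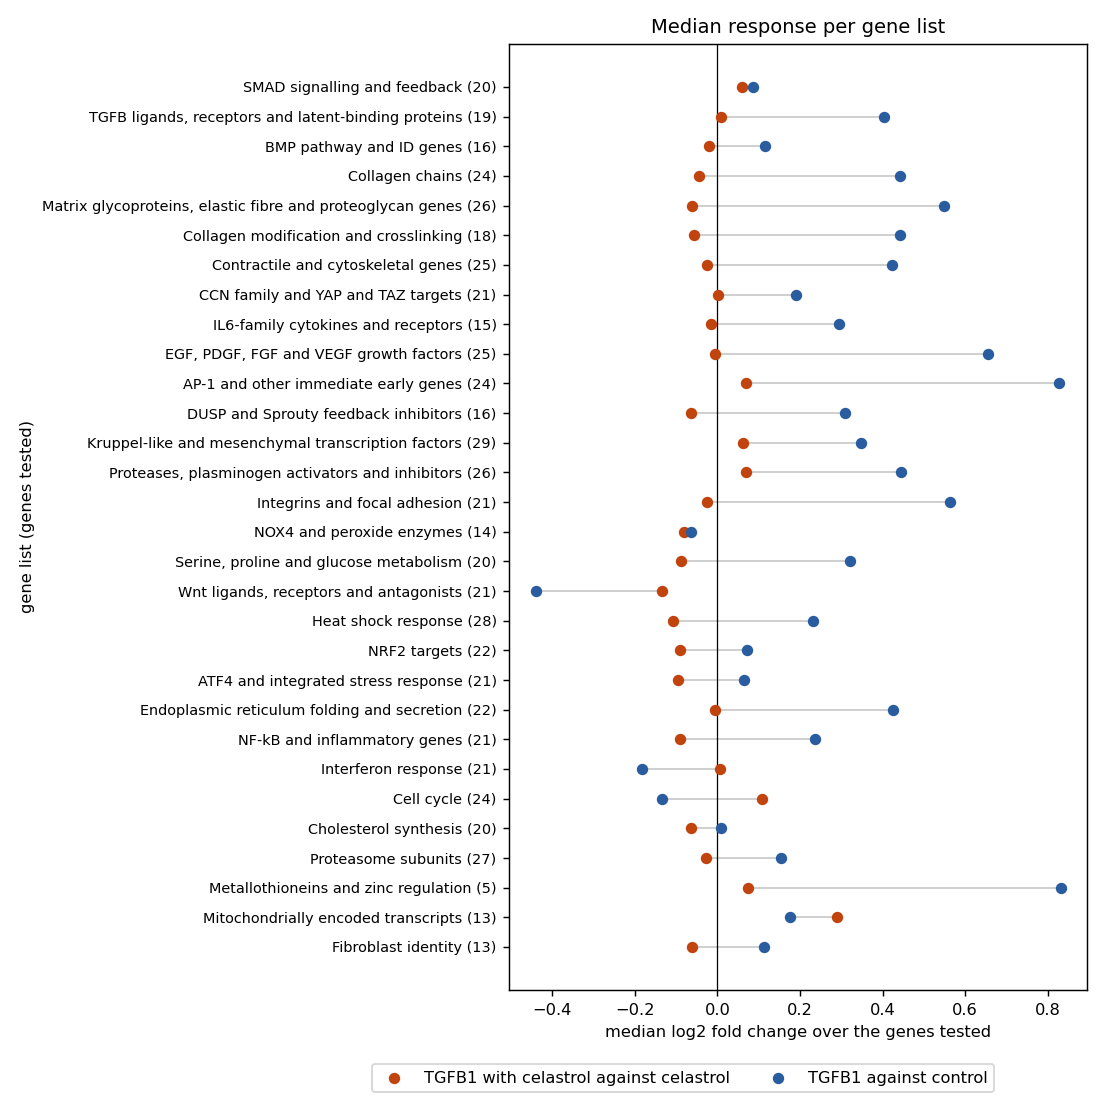
Median log2 fold change of each gene list with at least 5 genes tested, for TGFB1 with celastrol over celastrol and for TGFB1 over control, with the number tested in brackets. With celastrol the medians lie between -0.13 and 0.29, and the medians of matrix, integrin, growth factor and immediate early lists are nearer to 0 than without it.

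In the plot of list medians, scaling to a common total turned the medians of TGFB1 over control below 0 for the lists of SMAD signalling, the BMP pathway, CCN and YAP targets, NRF2 and ATF4 targets, cholesterol synthesis, proteasome, mitochondrial and fibroblast genes. It moved those of TGFB1 with celastrol over celastrol by about 0.01. Of the lists with at least 5 genes tested, those of mitochondrial transcripts and the cell cycle had the highest medians with celastrol. All 13 mitochondrially encoded transcripts were above 0 in log2 fold change with celastrol (0.11 to 0.52, median 0.29), 5 of them without overlap (38.5%, against 16.7% of all genes). None was past the adjusted limma threshold, and 2 were higher at an unadjusted p under 0.05, against 2.06% of all genes. MT-CO3 had 752 and 568 normalized reads in TGFB1 with celastrol and 529 and 537 in celastrol, and 15977 and 13319 in TGFB1, against 11604 and 12749 in control. Of 24 cell cycle genes 6 were above without overlap (25%, against 16.7% of all genes) and none below (against 17.1%). MKI67, a marker of cycling cells, had 9322 and 8361 in TGFB1 with celastrol, against 8192 and 5473 in celastrol, where replicate 2 stood apart. Its log2 fold change was 0.40 (95% interval 0.01 to 0.79), and 0.11 without celastrol replicate 2. Whether the share of cycling cells or the RNA per cell differed cannot be told apart in bulk RNA, and the part of these lists in the results above was not tested.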

How the data were processed

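RNA of 8 libraries (4 groups of 2) was sequenced from total RNA with a Vazyme kit. The submitters' processing notes name build hg38 with STAR 2.7.3a, DESeq2 and Partek 10.0.22. The counting rule, strand use and annotation are not given there. The authors deposited 1 normalized signal value per gene for 24598 genes. In each library 74.5% to 75.7% of the values came out as whole reads (tolerance 0.02 reads) once divided by a step particular to that library. The deposited signal was therefore taken to be read estimates over 1 scaling factor, and no count model was fitted. The step gave the depths.

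The 22866 genes that reached 10 normalized reads in 2 or more libraries were tested on log2(value + 1), which understates changes of low genes, with limma 3.58.1 in R 4.3.3, tested on simulated data. The fit had 1 mean per group, a variance trend and 4 residual degrees of freedom, with two-sided tests. Adjustment was Benjamini-Hochberg within each comparison, with calls at 0.05. All adjusted p-values are limma's. The interaction is (TGFB1 with celastrol minus celastrol) minus (TGFB1 minus control). No overlap means that both libraries of 1 group lay above both of the other.

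The genes and the 34 lists (662 entries) were chosen with earlier results of these data known. Named genes were the 12 largest called rises and falls with at least 50 normalized reads and no overlap, the 6 largest interactions of each sign, up to 4 members per list with the smallest p, and genes fixed whatever their result. Left out were clone, LINC and LOC names, small RNAs, host genes, pseudogenes and antisense transcripts, and not all genes selected are named. Replicate numbers are those of the titles, where celastrol replicate 2 has another label with 3. Alternatives covered the pseudocount, filter, scaling, trend, libraries left out and a replicate block. Exon overlaps of at least 50 bases are from GENCODE v29, and promoters from RefSeq (GRCh38.p14). Exons of SMAD3, LTBP1, IER3, LIF, IL6, ELN, VCAN, TNS1, ARHGAP28, KCNN2 and NEDD9 overlap antisense genes. Those of HSPD1, AXIN2, DNAJB9 and IFIT2 overlap other protein-coding genes.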

Additional observations from a re-analysis of the deposited data

Results flagged for a closer look

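For the genes below the TGFB1 response with celastrol differed from that without it by a test of the difference itself, the interaction term of the limma fit at an adjusted p under 0.05. Values are log2 fold changes with celastrol minus those without it, from 2 libraries in each of 4 groups. A negative value means that the response was smaller or lower with celastrol on the log2 scale. In normalized reads this can differ, as for FOSB, which gained 3755 with celastrol and 157 without it. EGR2, COMP, ANGPTL4, LIF, KIT, ARHGAP28, ADAMTS1 and KCNN2 were named for having the largest interactions, so their size is a description. For ANGPTL4 both control libraries were above the floor of 3 reads but close to it, so the size of its interaction is uncertain. The call was lost under at least 1 alternative for 18 of the genes, in 9 alternatives for SKI and TAGLN, 8 for COL1A1 and HSPD1, 7 for AXIN2 and FGF7, 6 for HMOX1, 5 for SMAD7, CCN1, NOG and SNAI1, 4 for HSPH1, 2 for ID3, NOX4 and SOCS3, and 1 for ID1, SLC2A3 and XBP1.

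Among the immediate early genes and transcription factors, the interaction was EGR2 -7.54, JUNB -3.02, BHLHE40 -2.52, FOSB -2.23, IER3 -2.06, KLF10 -1.75, SNAI1 -1.63 and SOX9 -0.83. In the SMAD pathway and among its ligands it was PMEPA1 -3.63, SKIL -1.11, SMAD7 -1.07, SKI -0.32, INHBA -2.27, TGFB1 -1.35 and LTBP1 -0.80, and positive for SMAD6 2.61, SMAD3 0.88 and FST 1.36. In the BMP branch it was BMP4 2.12, NOG 1.59, ID1 1.19, ID3 0.68 and BMPR2 -1.14. Among cytokines and growth factors it was LIF -5.07, IL11 -4.02, IL6 -2.26, SOCS3 -0.53, HBEGF -4.06, PDGFA -1.48 and FGF7 0.68.

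Among matrix, adhesion and contractile genes it was COMP -5.61, ELN -3.51, CCN2 -2.60, COL7A1 -1.68, FN1 -1.36, VCAN -0.96, COL1A1 -0.86, CCN1 -0.66, TNS1 -1.79, ITGA2 -1.60, NEDD9 -1.60, TAGLN -0.81 and NOX4 -2.37. In metabolism and stress lists it was ANGPTL4 -5.51, SLC2A3 -0.54, DNAJB9 -1.62, HMOX1 -0.89, GCLM -0.83, XBP1 -0.56, HSPH1 -0.54, HSPD1 -0.48, MT2A -1.19 and SLC19A2 -2.38. Of the genes that TGFB1 alone lowered, it was KIT 4.10, ARHGAP28 3.19, ADAMTS1 3.15, KCNN2 3.07, IFIT2 2.69 and AXIN2 1.77. FOXD4L6, with near-identical copies and under 1 read in TGFB1 with celastrol, had -3.95, where both groups without celastrol were near 0. For FOXD4L6 this is the same value as the fall for which it was named, so it is no further test. Set against the floor of 3 reads in each library, that fall was at least 5.79-fold.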

How the results depend on the processing

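Scaling libraries to a common total moved the median log2 fold change of TGFB1 alone by -0.21 and median centring by 0.12, and TGFB1 with celastrol by 0.01 at most. With a common total, TGFB1 alone raised 1417 genes and lowered 5399, the interaction gave 2474 positive and 801 negative calls, and the sets became 323 raised genes (median with celastrol 0.14) and 682 lowered genes (551 with a smaller response). Median centring gave 4778 raised genes, 2748 negative interactions and 4 lowered genes at an unadjusted p under 0.05. Without a variance trend the counts were 1836 raised, 577 positive and 668 negative interactions. For TGFB1 with celastrol, 0 genes were higher with log2(value + 0.5), with median centring, with no filter and with no trend, and 0 raised genes were then called. There 0 genes were lower with a minimum of 50, with log2(value + 0.5) or log2(value + 5), with median centring, with no filter, with only the 4 libraries compared and with the replicate block. In normalized reads, an alternative chosen after seeing the data, the share left was 4.33% and 2.05%, against 6.04% and 1.41% on the log2 scale. The cause of these changes was not tested.

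Leaving out each library in turn gave 0 to 0 genes higher and 0 to 0 lower with celastrol and 0 to 0 raised genes called. It gave 1841 to 2606 genes raised and 1322 to 2225 lowered by TGFB1 alone, and 376 to 1162 positive and 813 to 1553 negative interactions. The sets held 436 to 501 raised and 347 to 433 lowered genes, with medians of 0.07 to 0.13 and -0.042 to 0.0031, 42 to 86 and 3 to 16 genes at an unadjusted p under 0.05, and 322 to 417 and 186 to 348 with a smaller response. The log2 fold change with celastrol crossed 0 in ACTA2 (-0.73 to 0.19), ADAMTS1 (-0.023 to 0.17), ANGPTL4 (-0.00033 to 0.27), ARHGAP28 (-0.0049 to 0.028), COL1A1 (-0.34 to 0.030), COMP (-0.23 to 0.88), FN1 (-0.092 to 0.12), HSPA1A (-0.16 to 0.20), HSPA6 (-0.15 to 0.19), ID1 (-0.12 to 0.14), KIT (-0.26 to 0.021), NOX4 (-0.094 to 0.41), POSTN (-0.46 to 0.40), SMAD3 (-0.057 to 0.14), TAGLN (-0.25 to 0.036), TGFB1 (-0.095 to 0.17), TGFBR1 (-0.096 to 0.11) and TNS1 (-0.039 to 0.18).

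The labels do not say what libraries with the same replicate number share. Their deviations correlated at 0.171 to 0.233 in the 6 pairs of groups, and the third principal component (1.89% of the variance) set number 1 above number 2 in each group, a hint of pairing from the data and not from the design. With the replicate block 1 gene was higher with celastrol, TGFB1 alone raised 3590 and lowered 2952, and the interaction gave 1426 and 2239. There 103 raised and 19 lowered genes had an unadjusted p under 0.05. Of 60 named genes with an interaction call, 42 kept it in all alternatives and 18 lost it in at least 1. With 2 libraries a group, the 95% interval of the median gene reached 0.24 to either side, and log2 fold changes with celastrol as large as those of SMAD7 (0.64) and JUNB (0.62) did not pass the adjusted threshold.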
